A study of Mus musculus with 15 samples.

Results

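Genes of red cells and of macrophages were followed in RNA-seq data of mouse dental mesenchyme as a measure of the blood cells that its preparation carried. A list of 10 genes was set by name: the globin genes Hba-a1, Hbb-bs and Hbb-y, the haem enzyme gene Alas2 and the anion exchanger gene Slc4a1 for red cells, and Csf1r, Cd68, Tyrobp, Ptprc and Lyz2 for macrophages. A transcript of 8 of the 10 genes had a row in the deposited table, which holds 12089 transcripts that were matched to 11960 genes. All 5 red cell genes and 3 of the 5 macrophage genes (Csf1r, Ptprc and Lyz2) had a row, and no row was matched to Cd68 or Tyrobp.

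All 15 libraries came from ICR mouse embryos, taken per the study's methods at 1 mid-gestation stage, when the first molar is at the cap stage. Mouse dental mesenchymal cells (mDMCs) are single cells freed with trypsin from the mesenchyme of mandibular first molar germs after the epithelium had been removed. They were sequenced freshly isolated (0 h, 3 libraries) and after 12 h (2 libraries), 24, 36 and 48 h (3 libraries each) in medium with fetal bovine serum (FBS), beside 1 library of undissociated dental mesenchymal tissue. The labels name no allele, transgene or sort, so the mDMCs hold whatever cells the dissected mesenchyme released, and the labels do not say whether libraries of a time point came from separate embryos or cultures, so that p-values measure the spread between libraries, which may be technical.

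Red cells carry oxygen in haemoglobin, a tetramer of alpha-like and beta-like globin chains that each hold a haem group. In mouse embryos a first, primitive wave of red cells from the yolk sac makes embryonic globins (Hba-x, Hbb-bh1 and Hbb-y), and a definitive wave from the fetal liver makes adult globins (Hba-a1 and Hba-a2, Hbb-bs and Hbb-bt). Macrophages of embryonic tissues derive from the yolk sac and fetal liver, depend on the receptor Csf1r, and clear dying cells. Both reach a tooth germ, red cells within its vessels and macrophages within its mesenchyme.

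The beta-like globin genes of the table show how far reads of one can be told from those of another. The first 90 coding bases are given 5' to 3', because they show which rows can share reads, and capitals mark the bases that differ from Hbb-bs.
Hbb-bs: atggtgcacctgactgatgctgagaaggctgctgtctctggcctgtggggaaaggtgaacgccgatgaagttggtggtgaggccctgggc
Hbb-bt: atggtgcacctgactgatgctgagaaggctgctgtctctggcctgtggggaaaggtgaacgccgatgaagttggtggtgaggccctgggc
Hbb-y: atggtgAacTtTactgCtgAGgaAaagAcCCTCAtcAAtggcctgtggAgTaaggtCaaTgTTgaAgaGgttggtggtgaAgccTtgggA
Hbb-bh1: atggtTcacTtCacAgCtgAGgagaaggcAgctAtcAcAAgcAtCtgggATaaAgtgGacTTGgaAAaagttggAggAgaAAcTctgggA
Hbb-bs and Hbb-bt, the adult pair, were identical in this stretch and differed at 1 of 441 coding bases, with a shared run of 416 bases. The adult alpha genes Hba-a1 and Hba-a2 also differed at 1 base, of 426. How reads were divided within each adult pair is therefore uncertain, and their rows are best read as a pair. Embryonic Hbb-y differed from Hbb-bs at 26 of these 90 bases and at 113 of 441 in all (74.4% identical), with a longest shared run of 22 bases, and Hbb-bh1 differed from Hbb-bs at 115.

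The bases before the start sites of the red cell genes were searched, on both strands, for AGATAA and TGATAA, forms of the motif bound by the red cell factor GATA1, for CACCC, the core bound by KLF1, and for GAGGAA, the core bound by the macrophage factor PU.1. RefSeq (GRCm38.p6, the build called mm10) has windows of 250 bases before the start for 4 of the 5 red cell genes. The part of each window that lies before the transcript of the table is given 5' to 3' on the strand of the gene, because these 4 genes fell together, and capitals mark the motifs. TTATCA and TTATCT are TGATAA and AGATAA on the other strand.
Hba-a1, chr11:32283422-32283510, plus strand: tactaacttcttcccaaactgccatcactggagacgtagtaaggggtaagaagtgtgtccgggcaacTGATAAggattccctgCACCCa
Hbb-bs, chr7:103827929-103828178, minus strand: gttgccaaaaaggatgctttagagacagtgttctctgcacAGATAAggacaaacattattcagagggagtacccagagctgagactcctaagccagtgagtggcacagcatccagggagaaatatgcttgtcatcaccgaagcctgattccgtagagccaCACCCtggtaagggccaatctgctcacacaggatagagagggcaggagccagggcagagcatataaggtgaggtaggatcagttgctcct
Hbb-y, chr7:103853217-103853457, minus strand: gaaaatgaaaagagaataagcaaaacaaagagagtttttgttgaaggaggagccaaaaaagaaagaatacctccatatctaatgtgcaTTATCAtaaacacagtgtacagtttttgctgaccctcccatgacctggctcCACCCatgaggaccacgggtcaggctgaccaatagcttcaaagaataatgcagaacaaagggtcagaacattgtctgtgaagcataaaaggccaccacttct
Alas2, chrX:150547167-150547374, plus strand: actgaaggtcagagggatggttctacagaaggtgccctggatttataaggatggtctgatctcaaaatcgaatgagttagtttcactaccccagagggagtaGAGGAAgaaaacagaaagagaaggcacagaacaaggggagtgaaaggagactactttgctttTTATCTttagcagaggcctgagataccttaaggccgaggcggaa
All 4 windows hold a GATA1 motif of either form together with CACCC, as 7.11% of 32851 RefSeq windows of the same length do. Taken singly, a GATA1 motif occurs in 16.6% of these windows, the KLF1 core in 52.0% and the PU.1 core in 23.3%. The GATA1 motif began 183 bases before the start in Hba-a1, 210 in Hbb-bs, 162 in Hbb-y and 86 in Alas2. In Alas2 the 3 matches to the KLF1 core began 40, 35 and 30 bases before the RefSeq start, within the transcript of the table and so outside the bases shown, and it alone of the 4 holds the PU.1 core. No motif overlapped another in these windows. Among other globin rows searched, the windows of Hba-a2 and Hba-x hold a GATA1 motif and CACCC. That of Hbb-bt, which also fell, holds 3 CACCC but neither form of the GATA1 motif. The window of Lyz2 holds none of the 4 motifs. The 2 windows of Ptprc together hold both forms of the GATA1 motif and the PU.1 core but not the KLF1 core. These matches describe the letters only.

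The values are scores on a scale that all libraries share, with a total between 21357605 and 21365980 per library, so that 1 ppm of a library total equals a score of 21.4. Depth is unknown, and a score is set by rank. Of the listed markers of dental mesenchyme all 10 had a row, each at 2667 or more at 0 h and in the tissue. Col1a2 and Col3a1 were at the maximum of the table there, and the other 8 summed to 97329 to 112957 at 0 h and 87277 in the tissue, where 5 of the 10 were lower than in every 0 h library, as 32% of all transcripts were. Epithelial keratins and other epithelial markers summed to 18413 in 0 h replicate 1 but to 1818 and 2637 in the others, and to 95 in 36 h replicate 3 against at most 1027 in its group. Without 0 h replicate 1 the change of Hbb-bs from 0 h to 12 h was -8.54 (log2) against -8.30 with it.

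Red cell transcripts were abundant in freshly isolated mDMCs and fell steeply within the first 12 h of culture, and their later changes were far smaller. All 5 red cell genes were lower at 12 h (232-fold for Hba-a1, 316-fold for Hbb-bs, 624-fold for Hbb-y and 82.8-fold for Alas2), and Slc4a1 was listed at 0 in all 11 cultured libraries. In the tissue Hba-a1, Hbb-bs and Slc4a1 lay within the range at 0 h, Alas2 above it and Hbb-y below it.

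Hba-a1 encodes the adult alpha-globin chain (transcript ENSMUST00000093209, chr11:32283511-32284465, plus strand, 3 exons). Its score was 16489, 25013 and 19232 in the 0 h libraries and 23192 in the tissue. The score at 12 h was 53 and 136. It was 77, 69 and 200 after 24 h, 47, 41 and 15 after 36 h, and 5, 13 and 37 after 48 h. The highest cultured value, 200 in 24 h replicate 3, lay far below the lowest at 0 h. The values at 12 h and 24 h overlapped, as did those at 36 h and 48 h, and the later pair lay below the earlier pair.

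Hbb-bs encodes an adult beta-globin chain (ENSMUST00000023934, chr7:103826534-103827928, minus strand, 3 exons). Its score was 36325, 70508 and 50354 at 0 h and 70508 in the tissue. The score at 12 h was 156 and 162. It was 141, 170 and 300 after 24 h, 109, 122 and 44 after 36 h, and 14, 24 and 79 after 48 h. The 11 cultured libraries lay far below the 3 freshly isolated ones, with the highest value again in 24 h replicate 3, and the order of the time points was the same as for Hba-a1.

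Hbb-y encodes the embryonic beta-like chain of primitive red cells (ENSMUST00000033229, chr7:103851749-103853216, minus strand, 3 exons). Its score was 18558, 19258 and 40680 at 0 h, while the tissue had 6425, lower than each of these. It was 33 and 44 at 12 h, then 39, 26 and 55 at 24 h, 21, 16 and 2 after 36 h, and 10, 14 and 17 after 48 h. Hbb-y was the only one of the 5 red cell genes followed whose 3 freshly isolated libraries all exceeded the tissue. Here too the values at 36 h and 48 h overlapped and lay below those at 12 h and 24 h.

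Alas2 encodes the red cell form of 5-aminolevulinate synthase, the rate-limiting enzyme of haem synthesis (ENSMUST00000066337, chrX:150547375-150570638, plus strand, 11 exons). Its score was 595, 929 and 733 at 0 h and 1084 in the tissue. In culture it lay between 4 and 13 in all 11 libraries, under 1 ppm, and the values at 48 h (6, 6 and 4) lay below those at 12 h (9 and 7) and at 24 h (7, 11 and 13). Slc4a1 encodes band 3, the chloride and bicarbonate exchanger of the red cell membrane (ENSMUST00000006749, chr11:102348824-102365280, minus strand, 20 exons). Its score was 179, 324 and 370 at 0 h and 356 in the tissue, and 0 in every cultured library.

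**Figure D1:**
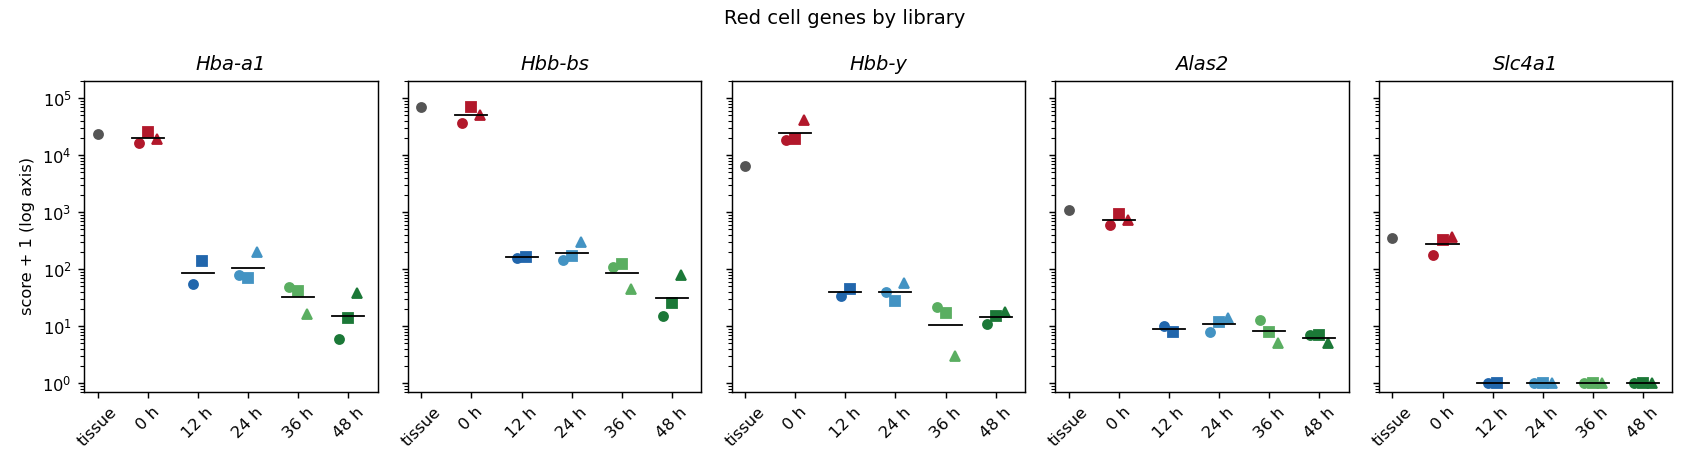
Score + 1 on a log axis for Hba-a1, Hbb-bs, Hbb-y, Alas2 and Slc4a1 in each library, by group (tissue, 0, 12, 24, 36 and 48 h). Circles, squares and triangles are replicates 1, 2 and 3 and lines are geometric means of score + 1. In each panel all 11 cultured libraries lie below the 3 libraries at 0 h, and Slc4a1 is at 0 in culture.

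The changes were fitted with limma on log2(score + 1) over the 14 mDMC libraries, and calls used an adjusted p-value (Benjamini-Hochberg over 12079 transcripts) below 0.05. The fold changes are on that scale and understate the change of low scores. From 0 h to 12 h Hba-a1 changed by -7.86 (95% interval -9.41 to -6.31, adjusted p = 1.44e-06), Hbb-bs by -8.30 (-9.61 to -6.99, adjusted p = 2.20e-07), Hbb-y by -9.29 (-10.75 to -7.82, adjusted p = 2.16e-07) and Alas2 by -6.37 (-7.30 to -5.45, adjusted p = 1.14e-07), each lower in 2 of 2 libraries at 12 h. Without 12 h replicate 1 the change of Hba-a1 was -7.19 and without 12 h replicate 2 it was -8.53, and with a pseudocount of 10 that of Alas2 was -5.38. All 8 genes with a row were called at 12 h, 7 lower and 1 higher, where 58.2% of all transcripts were called, 28.3% lower and 29.9% higher. With 1 library left out 5 to 7 of the 8 were called, 5 without 12 h replicate 2. All 5 red cell genes were also lower at 24 h (66.9% of transcripts called, 31.8% lower), at 36 h (70% called, 34% lower and 36% higher) and at 48 h (71.2% called, 34% lower), and they lay below all 3 libraries at 0 h in all 11 cultured libraries, as 22.6% of transcripts did. Alas2 and Slc4a1 exceeded 1 ppm only at 0 h, so they could be tested only through the group in which they were high and had to differ, and their calls add no support to the count.

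Within culture the fall of the adult globins went on at a much smaller scale. From 12 h to 48 h Hba-a1 fell 5.84-fold (log2 change -2.55, SE 0.71, adjusted p = 0.0127) and Hbb-bs 5.15-fold (-2.36, SE 0.61, adjusted p = 0.00779), and 42.2% of transcripts were called in this comparison (21% lower). Hbb-y changed by -1.44 (adjusted p = 0.102) and Alas2 by -0.52 (adjusted p = 0.351), which did not pass. Without 12 h replicate 2 the change of Hba-a1 from 12 h to 48 h was -1.87 with an adjusted p of 0.117, and with only the libraries of the compared time points its call was also lost (adjusted p = 0.0534) and that of Hbb-y gained (adjusted p = 0.0240). Without 12 h replicate 1, 48 h replicate 1 or 48 h replicate 3 the change of Hba-a1 was -3.22, -1.90 or -3.23, and without 48 h replicate 3 that of Hbb-bs was -3.05. These changes rest in part on scores under 1 ppm, since Hba-a1 reached 1 ppm in 8 and Hbb-bs in 10 of the 11 cultured libraries. Between 12 h and 24 h none of the 5 genes was called (8.25% of transcripts were, 3.67% as lower), and the change of Hbb-bs was 0.28 (95% interval -1.03 to 1.59). Between 24 h and 36 h the 1 red cell gene called was Hbb-y, which fell by 1.92 (adjusted p = 0.0421, against 19.7% of transcripts called, 9.64% as lower), and this call was lost without any 1 of the libraries at 24 h, without 36 h replicate 2 or without 36 h replicate 3 (without the latter, -1.02, adjusted p = 0.0939). Hba-a1 changed by -1.70 (adjusted p = 0.0793) and Hbb-bs by -1.20 (adjusted p = 0.137) over the same interval. With the replicate number as a block over all 14 libraries, Hbb-y did not pass (adjusted p = 0.0595). The block was read here because same-numbered libraries of 24 h and 36 h deviated together. Between 36 h and 48 h none of the 8 genes was called by limma (3 of 12079 transcripts were, 0.0248%). By the thresholds of the study's methods (p of less than 0.05, taken here as unadjusted, and more than 2-fold), which called 1.36% of transcripts between 36 h and 48 h, Hbb-bs was the 1 gene of the list that passed (-1.45).

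The 7 globin rows of the table add the pair members Hba-a2 and Hbb-bt and the embryonic Hba-x and Hbb-bh1. All 7 were lower at 12 h than at 0 h, where 28.3% of all transcripts were called lower. Hba-x and Hbb-bh1 reached 1 ppm in 2 libraries only through 0 h and so had to differ. The summed score of the 7 rows took 0.456%, 0.702% and 0.667% of the library total at 0 h and 0.630% in the tissue. It was 0.00167% and 0.00212% at 12 h, and lay between 0.00138% and 0.00349% after 24 h, 0.000318% and 0.00119% after 36 h, and 0.000215% and 0.000768% after 48 h. The lowest library at 0 h (0.456%) thus lay far above the highest cultured one (0.00349%). The replicates of a time point also differed: in 24 h replicate 3 the score was the highest of its group in 6 of the 7 rows, in 36 h replicate 3 the lowest in 5 of 7, and in 48 h replicate 3 the highest in 4 of 7.

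Hba-a2 had scores of 12057, 15596 and 12945 at 0 h and at most 88 in culture, and Hbb-bt 13630, 19210 and 18462 at 0 h and at most 101. From 0 h to 12 h Hba-a2 fell by 8.07 (SE 0.82) and Hbb-bt by 8.08 (SE 1.13) on the log2 scale. Hba-x, the embryonic alpha-like chain, was 242, 202 and 577 at 0 h and listed at 0 in 10 of 11 cultured libraries, and Hbb-bh1, the other early beta-like chain, was 164, 133 and 203 at 0 h and listed at 0 in 9 of 11.

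Embryonic and adult globins were not present in one fixed ratio. Hbb-y and Hbb-bh1 together made up 27.3%, 17.8% and 37.3% of the summed beta-globin score in the 0 h libraries but 6.72% in the tissue (the 4 beta-globin transcripts are 613 to 703 bases long, and no length correction was made). In the tissue Hba-x was at 82, Hbb-bh1 at 41 and Hbb-y at 6425. All 3 embryonic rows were thus lower there than in each 0 h library, as 32% of all transcripts were. The adult rows were not: the tissue value of Hba-a1, Hba-a2, Hbb-bs and Hbb-bt lay within the range at 0 h. The tissue was sequenced once, so nothing replicates this contrast. Among the cultured libraries the embryonic share lay between 4.0% (36 h replicate 3) and 36.8% (48 h replicate 2), where it rests on summed beta-globin scores of 50 and 38.

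**Figure D2:**
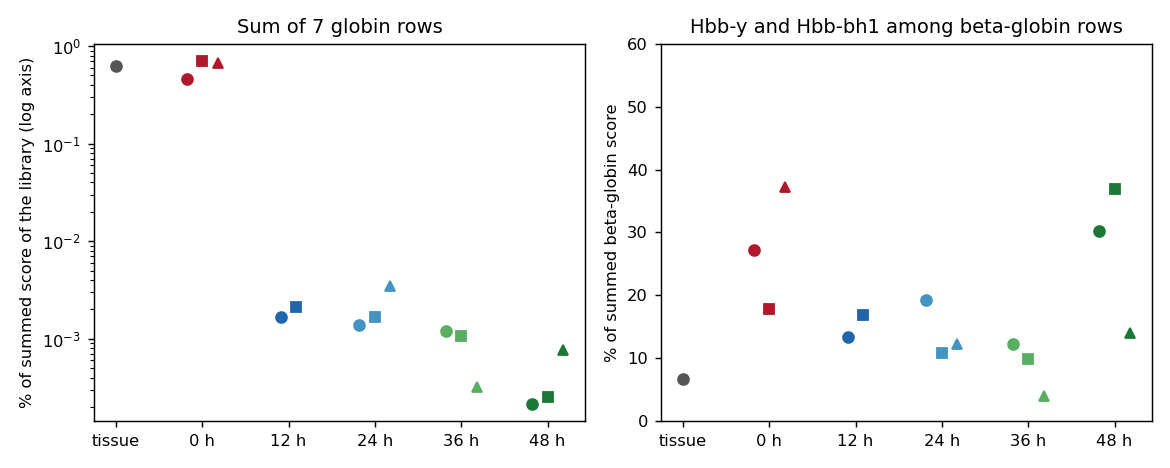
The left panel plots the summed score of the 7 globin rows as a percentage of the library total on a log axis, and the right panel plots Hbb-y and Hbb-bh1 as a percentage of the summed beta-globin score, for each library by group (circles, squares and triangles are replicates 1, 2 and 3). The left panel falls from between 0.456% and 0.702% at 0 h to at most 0.00349% in culture, and in the right panel the tissue (6.72%) lies below all 3 libraries at 0 h.

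Whether the genes fell in step was tested on log2 ratios within each library. Transcript length stays in each ratio but is the same in the groups compared. The ratios were compared between the 3 libraries at 0 h and the 11 cultured libraries with an exact two-sided permutation test (6 pairs of genes, smallest possible p = 0.00549). The log2 ratio of Hba-a1 to Hbb-bs was -1.34 ± 0.18 (SD, n = 3) at 0 h and -1.09 ± 0.42 (n = 11) in culture, a difference of 0.25 (exact p = 0.346, adjusted 0.346). That of Hbb-y to Hbb-bs was -1.05 ± 0.79 at 0 h and -2.13 ± 0.95 in culture, a difference of -1.08 (exact permutation p = 0.104, adjusted 0.125). Neither difference passed the threshold. Hbb-y reached 1 ppm in 5 of the 11 cultured libraries, so low scores enter its ratio too. With 1 library at 0 h left out its difference lay between -1.49 and -0.71. The ratio of Alas2 to Hbb-bs, also among the 6, is not read here, because Alas2 was under 1 ppm in every cultured library and a score of a few units sets it. Ratios to Slc4a1 were not formed because it was listed at 0 in culture.

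The genes that act with the globins were read from a list of 38 other red cell genes, of which 14 had a row. At 12 h 10 of the 14 were lower, 2 higher and 2 not called, with a median change of -1.59 (log2) against 0.018 over all transcripts, and at 48 h 9 were lower and 1 higher (median -1.99 against 0.031). Over all transcripts 28.3% were lower and 29.9% higher at 12 h, and 34% were lower and 37.1% higher at 48 h. Tal1, Hba-x and Hbb-bh1 are among 4 of the 14 rows that reached 1 ppm in 2 libraries only through 0 h and so had to differ. Beside the globins the lower ones included Tal1, a transcription factor of blood and endothelial precursors, with 78, 104 and 85 at 0 h and 0 to 9 in culture. Sptb, the beta chain of spectrin (-2.02 at 12 h), Car2, a carbonic anhydrase (-1.17), and Epb41, the membrane skeleton protein 4.1 (-0.98), fell less and are also used by other cells. Gata1, Klf1 and Epb42 had no row in the table. Tfrc, the transferrin receptor that brings iron into dividing cells, rose 4.45-fold at 12 h and 10.8-fold at 48 h, and Ank1, a membrane anchor of spectrin, rose 3.55-fold at 12 h and was not called at 48 h (-0.31, adjusted p = 0.327).

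Alas2 stood apart from the other genes of haem synthesis, all 9 of which had a row. At 12 h 5 of the 9 were lower, 2 higher and 2 not called (median -0.30 against 0.018 over all transcripts), and at 48 h 4 were lower and 3 higher (median -0.16 against 0.031). At each of these times 7 of the 9 were called, against 58.2% of all transcripts at 12 h and 71.2% at 48 h. Urod (-0.86 at 12 h), Ppox (-0.85), Fech (-0.59), Alad (-0.39) and the mitochondrial carrier Slc25a38 (-0.30) were lower at 12 h. Alas1, the form of the first enzyme that all cells use, rose by 0.46 at 12 h and 0.85 at 48 h, and Cpox rose by 1.83 and 1.57. Uros was not called at 12 h (0.08, adjusted p = 0.703) and was higher at 48 h (0.56). The changes of these enzymes lay between -0.86 and 1.83, while that of Alas2 at 12 h was -6.37, or -5.38 with a pseudocount of 10. Alas2 reached 1 ppm only at 0 h and so had to differ, and its size depends on the number added to each score.

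Of 13 genes of haem breakdown and iron handling 10 had a row, and 4 were higher and 5 lower at 12 h and again at 48 h (medians -0.16 and -0.41, against 0.018 and 0.031 over all transcripts, of which 58.2% and 71.2% were called). Hmox1, the inducible haem oxygenase, rose from 190, 245 and 217 at 0 h to 571 and 604 at 12 h and 2235, 2921 and 6934 at 48 h (16.4-fold at 48 h). Tfrc, described above, is also in this list. Trf, transferrin, fell 8.01-fold at 12 h and was 4, 30 and 15 at 48 h against 143, 299 and 163 at 0 h, and Slc40a1, the iron exporter ferroportin that macrophages use in recycling iron, fell 2.42-fold and 6.79-fold.

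Among the macrophage genes Csf1r and Ptprc fell in culture, as the red cell genes did, but by far less, and Lyz2 did not fall. Csf1r fell stepwise over 36 h to a level 5.67-fold lower at 48 h than at 0 h, Ptprc fell 1.61-fold, and Lyz2 rose 3.26-fold at 12 h and then varied between replicates. A bulk library cannot tell fewer cells of a type from less RNA of that gene per cell.

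Csf1r encodes the receptor for the cytokines CSF1 and IL-34 on macrophages and their precursors (ENSMUST00000025523, chr18:61105572-61131134, plus strand, 22 exons). Its score was 413, 474 and 397 at 0 h and 661 in the tissue. It was 273 and 291 at 12 h, 124, 181 and 115 at 24 h, 79, 84 and 96 after 36 h, and 56, 102 and 72 after 48 h. The groups at 0 h, 12 h, 24 h and 36 h did not overlap, whereas 36 h and 48 h did. Against 0 h it changed by -0.60 at 12 h (adjusted p = 0.0498), -1.63 at 24 h (adjusted p = 2.29e-05), -2.30 at 36 h (adjusted p = 9.24e-07) and -2.50 at 48 h (95% interval -2.97 to -2.03, adjusted p = 3.88e-07), lower in all libraries of each time point. Csf1r was also lower at 24 h than at 12 h (-1.03, adjusted p = 0.0215) and at 36 h than at 24 h (-0.67, adjusted p = 0.0476), but the first of these calls was lost without 12 h replicate 1, 12 h replicate 2 or 24 h replicate 3 (adjusted p 0.0558 to 0.132) and the second without any 1 of the 6 libraries compared (adjusted p 0.0533 to 0.184). From 36 h to 48 h the change was -0.21 (95% interval -0.68 to 0.26, adjusted p = 0.751). The call at 12 h was lost when any 1 of the 5 libraries at 0 h and 12 h was left out (adjusted p 0.0596 to 0.173) and with a pseudocount of 0.1 (adjusted p = 0.0517). The changes at 12 h and from 24 h to 36 h were under the 2-fold threshold of the study's methods.

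Ptprc encodes CD45, a phosphatase on the surface of all leukocytes (ENSMUST00000182755, chr1:138063420-138175300, minus strand, 29 exons). Its score was 304, 343 and 287 at 0 h and 371 in the tissue, then 225 and 253 at 12 h, 217, 239 and 210 at 24 h, 179, 221 and 212 after 36 h, and 215, 198 and 169 after 48 h. All 11 cultured libraries were below the 3 libraries at 0 h. Within culture 24 h overlapped with each other time point, while both libraries at 12 h lay above all those at 36 h and 48 h. The change from 0 h was -0.38 at 12 h (adjusted p = 0.0418), -0.48 at 24 h (adjusted p = 0.0056), -0.61 at 36 h (adjusted p = 0.0011) and -0.68 at 48 h (adjusted p = 0.000451). The call at 12 h was lost without 0 h replicate 1 or 2 and without either library at 12 h (adjusted p 0.0581 to 0.215), and also with only the libraries of the compared time points (adjusted p = 0.0950). The changes of Ptprc were all under the 2-fold threshold of the study's methods.

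Lyz2 encodes lysozyme of macrophages and granulocytes, which cuts bacterial cell walls (ENSMUST00000092163, chr10:117277331-117282321, minus strand, 4 exons). Its score was 113, 192 and 126 at 0 h and 439 in the tissue. It was 409 and 514 at 12 h, 381, 191 and 173 at 24 h, 365, 355 and 203 after 36 h, and 449, 114 and 168 after 48 h. Both libraries at 12 h were above all 3 at 0 h, while 24 h and 48 h overlapped with 0 h. Lyz2 was higher at 12 h (1.71, 95% interval 0.62 to 2.79, adjusted p = 0.0107) and at 36 h (1.08, adjusted p = 0.0455), and the changes of 0.73 at 24 h (adjusted p = 0.166) and 0.55 at 48 h (adjusted p = 0.289) did not pass. Without 12 h replicate 2 the change at 12 h was 1.54 (adjusted p = 0.0694). Without 0 h replicate 1 or 3, or 36 h replicate 1 or 2, the call at 36 h was lost (adjusted p 0.104 to 0.129), as it was without a trended prior (adjusted p = 0.0561). Without 48 h replicate 1 the change at 48 h was -0.0148. Lyz1, the neighbouring lysozyme gene, had no row.

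**Figure D3:**
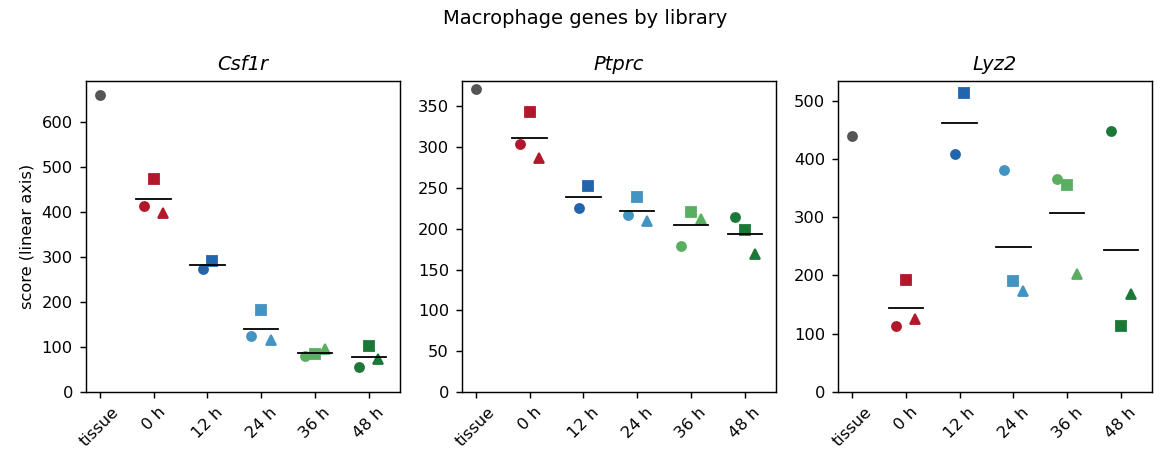
Score on a linear axis for Csf1r, Ptprc and Lyz2 in each library, by group (tissue, 0, 12, 24, 36 and 48 h). Circles, squares and triangles are replicates 1, 2 and 3 and lines are group means. Csf1r falls from 397 to 474 at 0 h to 56 to 102 at 48 h, Ptprc stays between 169 and 253 in culture, and the replicates of Lyz2 spread from 114 to 449 at 48 h.

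The ratio of each gene to Csf1r within a library changed with culture. The log2 ratio of Ptprc to Csf1r was -0.46 ± 0.015 (SD, n = 3) at 0 h and 0.85 ± 0.66 (n = 11) in culture, a difference of 1.31, and that of Lyz2 to Csf1r was -1.60 ± 0.28 at 0 h and 1.21 ± 0.91 in culture, a difference of 2.82. The ratio of Csf1r to Hbb-bs rose by 7.26. Each of these 3 differences had an exact permutation p of 0.00549, the smallest possible (adjusted 0.00824). Ptprc and Lyz2 thus did not keep 1 ratio to Csf1r, nor did Csf1r to Hbb-bs. The outcome for Csf1r to Hbb-bs was fixed by the falls given above and adds no support. The cultured libraries pool the time points, and the ratio of Ptprc to Csf1r ranged from -0.28 to 1.92 among them. Over the 15 libraries the log2 scores of the red cell genes correlated with each other at 0.955 to 0.996 and those of Csf1r and Ptprc at 0.905. With the 5 red cell genes Csf1r correlated at 0.814 to 0.879 and Ptprc at 0.842 to 0.884, while Lyz2 correlated with the other 7 genes at -0.324 to -0.0213. These values are descriptions over libraries that share the step from 0 h to culture.

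Of a list of 53 other macrophage genes 21 had a row. At 12 h 13 of these were lower, 3 higher and 5 not called (median -1.31 against 0.018 over all transcripts), and at 48 h 12 were lower, 3 higher and 6 not called (median -1.86 against 0.031), where 28.3% of all transcripts were lower and 29.9% higher at 12 h and 34% lower and 37.1% higher at 48 h. At 12 h the falls were larger than that of Csf1r in several genes known from tissue macrophages. Mrc1, the mannose receptor, went from 849, 947 and 509 at 0 h to 85 and 91 at 12 h and 67 to 90 at 48 h (8.36-fold lower at 12 h, 9.52-fold at 48 h). Stab1, a scavenger receptor also found on endothelium, fell 14.4-fold at 12 h and 41.1-fold at 48 h, and F13a1, clotting factor XIII chain A of macrophages and platelets, fell 9.13-fold and 19.2-fold. C1qa, a chain of complement C1q, changed by -2.39 at 12 h and Cx3cr1, the fractalkine receptor, by -2.12. Cx3cr1 was 315, 341 and 162 at 0 h and 36, 59 and 44 at 48 h. Irf8, a transcription factor of the macrophage lineage, was 58, 244 and 228 at 0 h and 3 to 12 in culture, and Cd83 was 102, 219 and 162 at 0 h and 1 to 13 in culture. Both were under 1 ppm in all 11 cultured libraries, so that these 2 of the 21 rows were tested only through the libraries at 0 h and had to differ. Adgre1, which encodes the antigen F4/80, was 94, 100 and 49 at 0 h and 106 and 133 at 12 h (0.61, adjusted p = 0.271) and was lower at 48 h (-1.0, adjusted p = 0.0426). Mpeg1, the macrophage perforin, was higher at 12 h (0.92, adjusted p = 0.0185) and not called at 48 h (-0.07, adjusted p = 0.815). Cd163, Spi1, Aif1 and Trem2 had no row.

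**Figure D4:**
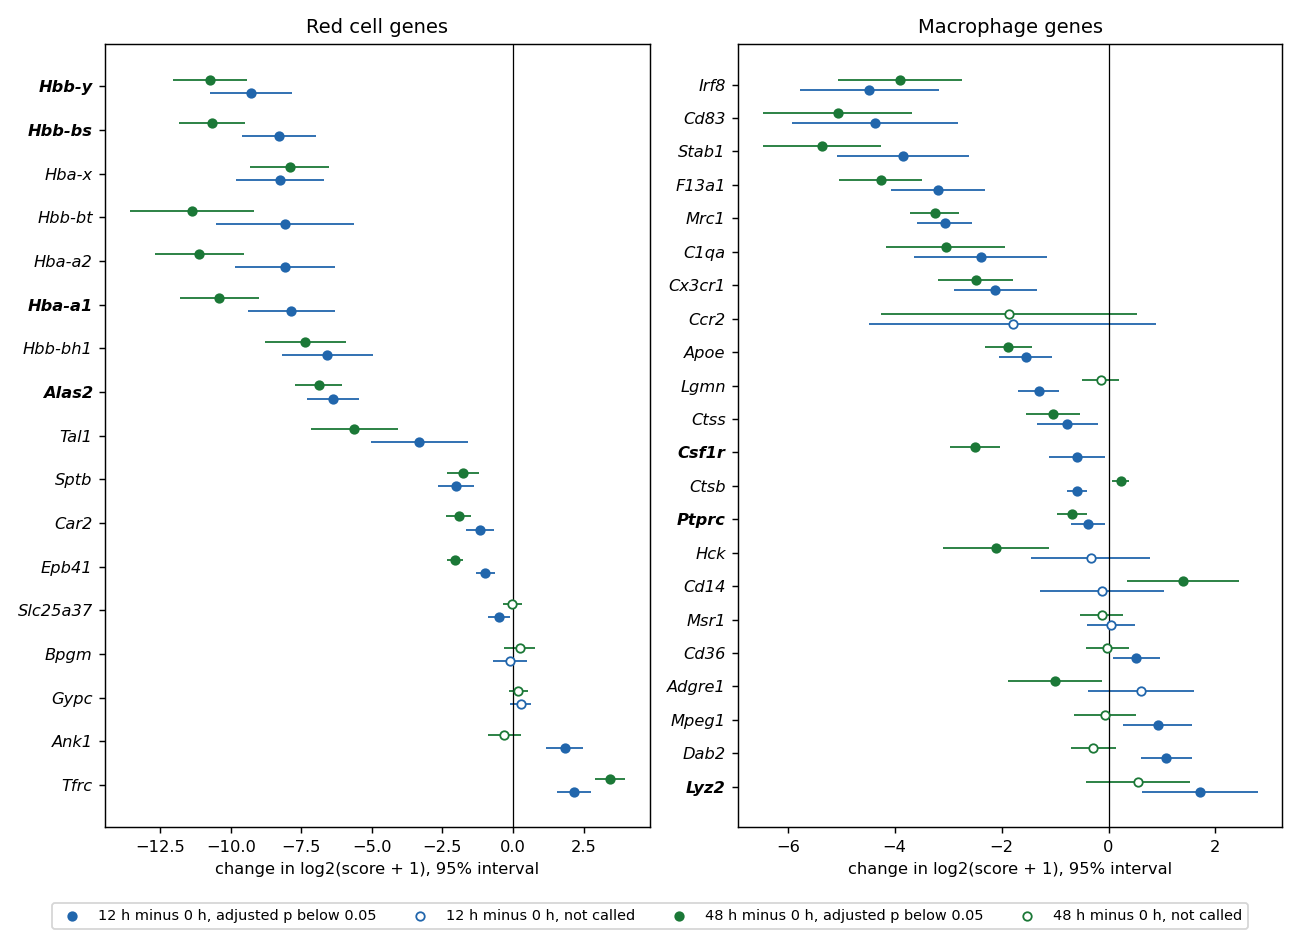
Change in log2(score + 1) from 0 h to 12 h (blue) and to 48 h (green) with 95% intervals, for red cell genes (left) and macrophage genes (right) with a row, the genes followed here in bold; filled points have an adjusted p below 0.05. Slc4a1 is left out because it was listed at 0 throughout culture, and the points of Hba-x and Hbb-bh1 depend on the 1 added to each score. Hbb-y, Hbb-bs and Hba-a1 lie at -7.86 or lower at both times, while Csf1r, Ptprc and Lyz2 lie between -2.50 and 1.71.

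Of 22 other genes of leukocytes in general 10 had a row, with 4 lower and 2 higher at 12 h and 6 lower and 2 higher at 48 h (medians -0.49 and -0.95, against 0.018 and 0.031 over all transcripts). Over all transcripts 28.3% were lower and 29.9% higher at 12 h, and 34% lower and 37.1% higher at 48 h. Lcp1, an actin bundling protein, fell 6.03-fold at 12 h and 11.3-fold at 48 h, and Coro1a, an actin regulator, fell 2.65-fold and 9.15-fold. Laptm5, a lysosomal protein of blood cells, fell 2.17-fold and 5.41-fold. Arhgdib, which other cells also make, rose 2.04-fold and 6.52-fold. Ptprc changed by -0.68 at 48 h and Cd53, another surface protein of leukocytes, by -0.62.

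Lyz2 and Cd68 act in lysosomes, and 9 of 11 lysosomal genes that most cells use had a row. At 12 h 1 was higher and 3 were lower, and at 48 h 8 were higher and none lower (medians -0.13 and 0.99, against 0.018 and 0.031 over all transcripts), among them Lamp1 (3.07-fold) and Ctsl (2.76-fold). Of all transcripts 29.9% were higher at 12 h and 37.1% at 48 h. Lyz2 was higher at 12 h, when 1 of the 9 was, and was not called at 48 h, when 8 were higher. At 36 h 7 of the 9 were higher and 0 lower (36% of all transcripts were higher). Lyz2 was called higher then as well, a call that was lost in the settings given above.

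Csf1, which encodes a ligand of Csf1r, rose as Csf1r fell. Its score was 491, 845 and 799 at 0 h and 999 in the tissue, 7398 and 5332 at 12 h, and 5332 to 11063 over all 11 cultured libraries (9.06-fold higher at 12 h, adjusted p = 2.27e-07, and 9.53-fold at 48 h, adjusted p = 2.66e-08). The gene of the other ligand, Il34, had no row. Of 13 ligands and support factors of macrophages and red cells 8 had a row, with 4 higher and 1 lower at 12 h and 5 higher and 1 lower at 48 h (medians 1.45 and 1.82, against 0.018 and 0.031 over all transcripts, of which 29.9% were higher at 12 h and 37.1% at 48 h). Ccl2, a chemokine that draws monocytes, rose 9.49-fold at 12 h and 30.8-fold at 48 h, and Cx3cl1, the ligand of Cx3cr1, rose 12.9-fold and 8.80-fold. Tyrobp, which had no row, encodes the adaptor DAP12. Of 10 genes of DAP12 and Csf1r signalling 7 had a row, and 1 was higher and 2 lower at 12 h (Dok1 by 1.36, Fes by -1.91 and Inpp5d by -1.57, median of the list -0.17) and 2 higher and 2 lower at 48 h (median -0.08), against medians of 0.018 and 0.031 over all transcripts, of which 58.2% and 71.2% were called.

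The tissue, which was never dissociated, and the freshly isolated mDMCs could be set side by side for each gene, with no test because there is 1 tissue library. Relative to the mean at 0 h the tissue held Hba-a1 at 1.15 times, Hbb-bs at 1.35, Alas2 at 1.44, Slc4a1 at 1.22 and Hbb-y at 0.246 times, and of these Alas2 alone lay above all 3 libraries at 0 h. Csf1r was at 1.54 times, Ptprc at 1.19 and Lyz2 at 3.06 times the mean at 0 h, and all 3 lay above all 3 libraries, as 29.7% of transcripts did (32% lay below). Of the other macrophage genes 18 of 21 were above all 3 libraries at 0 h and 0 below, of the other leukocyte genes 8 of 10 were above, and of the endothelial markers 10 of 12. General lysosomal genes (8 of 9) and skeletal muscle markers (4 of 4, with Actc1 at 1603 against 65 to 280 at 0 h and Tnnt1 at 1104 against 35 to 216) were also above all 3 libraries at 0 h in the tissue, and their part in these differences was not tested. Lyz2 in the tissue (439) was within the range of the 2 libraries at 12 h.

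**Figure D5:**
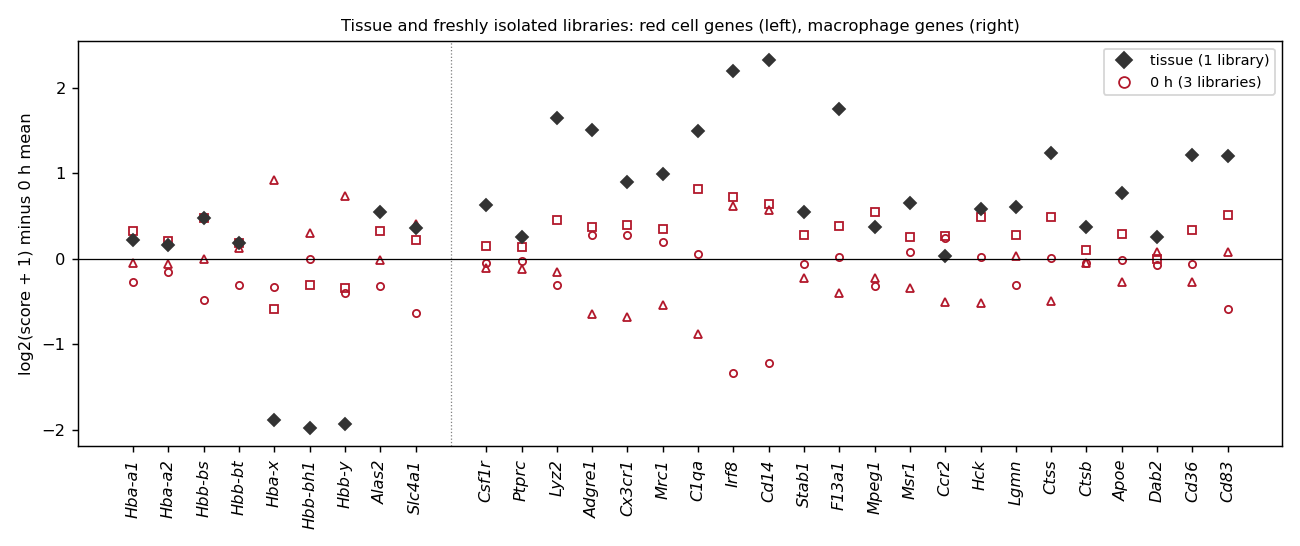
Log2(score + 1) minus the mean of the 3 libraries at 0 h, for the tissue (filled diamonds, 1 library) and each library at 0 h (open symbols), for red cell genes on the left and macrophage genes on the right. Most macrophage genes have the tissue above all 3 libraries at 0 h, whereas the adult globins are within their range and Hba-x, Hbb-bh1 and Hbb-y lie far below.

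Most endothelial markers were also lower in culture. Of 14 endothelial markers 12 had a row, and 10 were lower and 1 higher at 12 h (median -3.75 against 0.018 over all transcripts, of which 28.3% were lower), 4 of the 12 being rows that reached 1 ppm in 2 libraries only through 0 h. Their summed score was 12331 to 14277 at 0 h, 2791 to 5283 in culture and 17175 in the tissue. Cldn5, a tight junction protein of vessels, was 688, 745 and 468 at 0 h and 0 in 10 of 11 cultured libraries, and Pecam1 fell 19.0-fold at 12 h, while Flt1 rose 2.16-fold. Of 7 mast cell genes Cpa3 and Kit had a row, and Cpa3 was 183, 247 and 143 at 0 h and 0 to 15 in culture, so that it was tested only through 0 h and had to differ. Kit was 363 to 590 at 0 h and 80 to 298 in culture. Itgb3 and Vwf were the 2 of 11 platelet genes with a row, and at 12 h Itgb3 was higher (0.69, 394 and 358 against 198, 303 and 210 at 0 h) and Vwf lower (-1.29). Lck, the 1 of 10 lymphocyte genes with a row, was lower (-1.47), and none of 9 neutrophil genes had one. Their part in the changes of the red cell and macrophage genes was not tested. Of the 10 dental mesenchyme markers 6 were lower at 12 h and 7 at 48 h (medians -0.45 and -0.80, against 0.018 and 0.031 over all transcripts, of which 28.3% and 34% were lower), with changes down to -2.69 for Pdgfra at 48 h.

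The transcripts whose pattern was most like that of each gene over the 15 libraries were not genes of blood cells alone. For Hbb-bs they were Tspan13 (Pearson r = 0.990), Stmn1 (0.989), Hba-a2 (0.987), H3f3a (0.986) and Gprasp2 (0.985), and for Hba-a1 Stmn1 came first (0.992). Adam22 came first for Hbb-y (0.994), Cntln for Alas2 (0.990) and Enpp2 for Slc4a1 (0.995). The closest were Slc44a1 for Csf1r (0.981), Smoc1 for Ptprc (0.956) and Cry1 for Lyz2 (0.838). Tspan13, for example, was 549, 542 and 461 at 0 h, 582 in the tissue and 29 to 92 in culture, so that, as for the red cell genes, its 4 uncultured libraries lay apart from the 11 cultured ones. Correlations within each set were not computed.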

How the data were processed

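Per the study's methods, the authors cut adaptors from the reads of TruSeq RNA libraries and aligned the reads against mouse transcripts (build mm10) with bowtie, and RSEM (version 1.1.21 per the submitters' processing notes, while the methods give a later version) gave the expression estimates. The authors deposited 1 score per transcript and library. The column names call it CPM, but the scores are whole numbers with 1 shared distribution (median 721 and maximum 127101 in all 15 libraries), so they were set by rank, depth is unknown and counting error cannot be stated. Each library lists 14 to 31 transcripts at 0. The lowest maximum of any row is 13, so a gene with no row may have been low in every library. No per-sample column was left unused.

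Transcripts were matched to genes with GENCODE vM21 (GRCm38); 116 of 12089 stayed unmatched. Scores were analysed as log2(score + 1). The 14 mDMC libraries were fitted with limma 3.58.1 (R 4.3.3), 1 mean per time point and a trended eBayes prior, two-sided, for 12079 transcripts with at least 1 ppm in at least 2 libraries. On simulated data with 12079 transcripts the limma step was tested for 0 h against 48 h. Permutation tests and plots used Python 3.11.15, scipy 1.17.1, numpy 2.4.6, pandas 2.3.3 and matplotlib 3.10.9. The alternatives were another pseudocount, other filters, no trend, only the compared time points, the replicate block, the study's call rule and each replicate left out. The labels give no meaning to the replicate numbers. Deviations from the group means correlated above 0.1 in all 3 same-numbered pairs for 24 h with 36 h (0.127 to 0.165) and for 24 h with 48 h (0.201 to 0.318). These were 2 of the 6 combinations with 3 pairs. Over all combinations 11 of 26 same-numbered pairs lay above 0.1 against 6 of 52 others. The numbers were taken to pair these 2 combinations, but the replicate block was fitted over all 14 libraries and so also paired the other time points by number. The genes followed and all lists were chosen with earlier results of these data known. Named are all genes followed, all globin rows, haem synthesis enzymes and ligands of Csf1r, and from each other list the 4 to 8 rows with the largest changes; genes named beyond this rule (such as Adgre1, Mpeg1 and the genes said to have no row) were chosen after their values were seen. A few genes that this rule would name are not reported here. The planned protein sequences were not used here.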

Additional observations from a re-analysis of the deposited data

How the results depend on the processing

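Of 842 changes of single genes recomputed under the alternatives, 783 kept their direction and their side of the threshold, 44 fell short of it, 6 passed it and 9 reversed. For Hba-a1, Hbb-bs and Hbb-y against 0 h all 165 kept both. With at least 1 ppm required in all 14 libraries only Csf1r, Ptprc and Lyz2 could be tested, so that 3 of the genes followed were called against 0 h after 12 h, 2 after 24 h, 3 after 36 h and 2 after 48 h, while 1 was called between 24 h and 36 h and 1 between 12 h and 48 h. With only the compared time points, and so fewer libraries, 0 were called between 12 h and 24 h (1 with all time points) and 0 between 24 h and 36 h (2 with all time points). Without the eBayes trend 1 was called from 24 h to 36 h, and by the study's call rule 1 from 36 h to 48 h (0 by the adjusted p), while Ptprc against 0 h at all 4 times, and Csf1r at 12 h and from 24 h to 36 h, were under its 2-fold limit; the cause was not tested for the former.

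With the replicate block 1 gene was called from 24 h to 36 h, Csf1r, and Hbb-y missed the threshold (adjusted p = 0.0595). The block changed no other call of the genes followed.

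With 1 library left out in turn, the genes called numbered 5 to 7 at 12 h (8 with all libraries, 5 without 12 h replicate 2), 7 to 8 at 36 h, 0 to 1 from 12 h to 24 h, 0 to 1 from 24 h to 36 h and 2 to 4 from 12 h to 48 h. With 1 library left at 12 h, its spread was assumed equal to that of the other groups. None of the reversed changes was called. From 12 h to 24 h Hba-a1 ranged from -0.41 to 0.93 (-0.22 without 24 h replicate 3), Hbb-bs from -0.038 to 0.50 and Hbb-y from -0.25 to 0.27 (-0.20 without 12 h replicate 1, -0.0085 without 24 h replicate 1). From 36 h to 48 h Hbb-y ranged from -0.43 to 1.01 and Ptprc from -0.16 to 0.022, and Lyz2 from 0 h to 48 h ranged from -0.0148 to 0.97. Depth could not be assessed, and scores under 1 ppm (Alas2 in culture, Hbb-y from 36 h on, Hba-a1 in 3 and Hbb-bs in 1 of the 11 cultured libraries) carry no known precision beyond the replicates.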
